A study of Homo sapiens with 6 samples.

Results

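Genes for enzymes of carbonyl and quinone reduction and of NADPH supply were followed in OE33 cells, an established line from a human esophageal adenocarcinoma. The 9 genes were taken by name from a table of 58735 genes: the aldo-keto reductase genes *AKR1A1*, *AKR1B1*, *AKR1B10*, *AKR1C1*, *AKR1C2* and *AKR1C3*, the quinone reductase gene *NQO1*, and *PGD* and *ME1*, which encode enzymes that make NADPH. Polyadenylated RNA was sequenced from 2 groups of 3 biological replicates. Cells of the first group, called ABS, spent 20 min in medium without supplements at pH 4.0 with 200 µM acidified bile salts and then recovered for 6 h in complete medium. Cells of the second group, called control, were untreated. Both groups were the same line, grown in RPMI1640 with serum. The labels name no sample given acid, bile salts or the exposure medium separately, so the effects of these cannot be told apart.

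Aldo-keto reductases use NADPH to reduce aldehydes and ketones to alcohols. NQO1 reduces quinones in a single step that avoids the reactive semiquinone. Many genes of this kind are targets of NRF2, a transcription factor that KEAP1 holds at low levels in unstressed cells and that binds antioxidant response elements (ARE) in DNA. The NADPH that these reductases use comes in part from 6-phosphogluconate dehydrogenase (PGD), in the pentose phosphate pathway, and from cytosolic malic enzyme (ME1).

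None of the 9 genes differed between ABS and control cells past the threshold, and the set was not uniformly abundant. *PGD*, *NQO1*, *AKR1B1*, *ME1* and *AKR1A1* were expressed well above the median of the tested protein-coding genes in control cells. *AKR1C3*, *AKR1C1*, *AKR1C2* and *AKR1B10* were near the low end of these tested genes, which had passed a filter on low counts. The description of all 9 as genes with a high baseline therefore held for 5 of them. *NQO1* had a fold change of 1.00 (95% interval 0.904 to 1.11), and the widest uncertainty lay with *AKR1B10*, *AKR1C1* and *AKR1C2*, which rested on few counts.

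*AKR1C1*, *AKR1C2* and *AKR1C3* are neighbours on chromosome 10 with closely similar sequences, which bears on how their reads can be assigned. The first 150 coding bases, 5′ to 3′, from the GENCODE release 29 transcripts are shown to make this visible, with capitals at the positions where *AKR1C2* or *AKR1C3* differs from *AKR1C1*.
AKR1C1: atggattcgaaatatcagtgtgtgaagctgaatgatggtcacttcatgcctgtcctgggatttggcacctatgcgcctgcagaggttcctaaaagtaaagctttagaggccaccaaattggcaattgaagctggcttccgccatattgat
AKR1C2: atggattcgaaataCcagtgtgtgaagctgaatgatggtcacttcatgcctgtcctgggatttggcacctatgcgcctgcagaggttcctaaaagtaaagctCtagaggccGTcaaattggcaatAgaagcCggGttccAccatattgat
AKR1C3: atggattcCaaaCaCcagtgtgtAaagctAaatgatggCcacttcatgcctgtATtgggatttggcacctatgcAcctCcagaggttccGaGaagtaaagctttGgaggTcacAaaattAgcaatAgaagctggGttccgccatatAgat
In this stretch *AKR1C2* differed from *AKR1C1* at 8 positions and *AKR1C3* at 19. Over the whole coding sequence of 972 bases the identity was 98.0% between *AKR1C1* and *AKR1C2*, with 19 differences, 91.5% between *AKR1C1* and *AKR1C3* and 91.0% between *AKR1C2* and *AKR1C3*. Of all windows of 100 bases in the annotated transcripts, 16.7% of those of *AKR1C1* and 23.1% of those of *AKR1C2* also occurred in transcripts of another gene, almost all in each other. The share was 1.75% for *AKR1C3*, 1.59% for *AKR1B10* and 0 for *AKR1A1*, *AKR1B1*, *NQO1*, *PGD* and *ME1*. With windows of 50 bases it was 28.6% for *AKR1C1*, 38.9% for *AKR1C2* and 14.6% for *AKR1B10*. At that length it was 5.45% for *AKR1B1*, 4.53% for *AKR1C3*, 4.16% for *PGD*, 1.61% for *AKR1A1*, 0.83% for *NQO1* and 0 for *ME1*. The read length, and how reads with more than 1 matching gene were counted, are not given in the sources used here. The counts of *AKR1C1* and *AKR1C2* are therefore uncertain as a split between the 2 genes. If reads with more than 1 match were dropped, the levels of both genes would also be understated.

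RefSeq promoter entries (GRCh38.p14) matched 8 of the 9 genes, all but *AKR1B10*. The core of the ARE was searched as TGACNNNGC on both strands in the 250 bases before each start site. It occurred before *ME1* and *PGD* and in none of the windows of the other 6 genes, while 10.9% of 35116 promoter windows of the same length held it. The window of *ME1* is shown because it holds the letters of the core in the forward direction, in capitals (chr6:83431052-83431301, minus strand).
ME1: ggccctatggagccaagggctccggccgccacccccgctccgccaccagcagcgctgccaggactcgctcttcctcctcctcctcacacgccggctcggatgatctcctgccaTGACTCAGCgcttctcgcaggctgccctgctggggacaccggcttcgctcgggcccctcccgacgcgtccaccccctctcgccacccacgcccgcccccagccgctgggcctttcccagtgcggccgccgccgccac
The match lay 137 to 129 bases before the start site and overlapped a match to the AP-1 letters TGANTCA, which 6.6% of windows held. In *PGD* the match was on the reverse strand, 201 to 193 bases before the start site, with the letters GCAATGTCA. A match of letters in these windows is no evidence of binding, and sites farther from the start were not searched.

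The libraries held 25235686, 23414287 and 24805821 counts in ABS replicates 1 to 3, and 23683950, 22145676 and 23612697 counts in control replicates 1 to 3. The epithelial markers *EPCAM*, *CDH1*, *KRT8*, *KRT18*, *KRT19* and *CLDN4* summed to 19160 to 20430 CPM (counts per 1000000 counts) in ABS libraries and 18340 to 20990 CPM in control libraries. Of these, *CLDN4* differed most, by 0.54 in log2 units (edgeR adjusted p 0.103), and 0 of the 6 passed. The fibroblast, immune and endothelial markers each summed to under 5 CPM in every library, with *COL1A2*, *DCN*, *PTPRC* and *CD3E* at 0 counts throughout. The replicate 3 libraries stood apart in both groups. A chi-square statistic on counts, per degree of freedom, was 4.77 between ABS replicates 1 and 2, 4.77 between control replicates 1 and 2 and 6.74 between the replicate 3 libraries of both groups, against 13.6 to 18.9 for the other 12 pairs. Differences are therefore also given for replicates 1 and 2 alone and for the replicate 3 pair. A level in bulk RNA does not tell a smaller number of expressing cells from less RNA per cell.

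Levels in control cells were compared between genes per length, as CPM per kilobase of annotated exon. *PGD* had the highest level of the 9, at 86.6 ± 7.11 (mean ± SD, n = 3), followed by *NQO1* at 75.6 ± 4.04 and *AKR1B1* at 41.7 ± 0.916. *AKR1B1* encodes aldose reductase, which reduces glucose to sorbitol as well as lipid aldehydes. *ME1* had 36.1 ± 1.31 and *AKR1A1*, which encodes a widely expressed aldehyde reductase, 17.5 ± 1.02. Below a wide gap came *AKR1C3* at 0.995 ± 0.229, *AKR1C1* at 0.318 ± 0.0866, *AKR1C2* at 0.198 ± 0.0168 and *AKR1B10* at 0.186 ± 0.116. On this scale the control ranges of neighbours in this order did not overlap, except for *AKR1C2* and *AKR1B10*. The levels of these 2 genes did not differ beyond their spread. In ABS cells the order of mean levels was the same except that *AKR1B10* stood above *AKR1C2*.

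The median level of the 11837 protein-coding genes tested was 5.52 on this scale. Counted from the highest level, *PGD* ranked 463, *NQO1* 541, *AKR1B1* 1043, *ME1* 1245 and *AKR1A1* 2626 among them. *AKR1C3* ranked 9717, *AKR1C1* 10903, *AKR1C2* 11260 and *AKR1B10* 11306. The exon unions of *AKR1C1* and *AKR1C2*, 8765 and 6461 bases, are long beside their coding sequence, and scaling by the longest coding transcript was tried after the data were seen. It put *AKR1B1* at 108, above *NQO1* at 84.5, and *AKR1C3* at 2.50, and kept the 4 low genes below the others. *AKR1C1* was then at 0.416 ± 0.113, *AKR1C2* at 0.341 ± 0.0289 and *AKR1B10* at 0.204 ± 0.127 (SD). The mean of *AKR1C2* thus lay within the SD of *AKR1C1*, so the separation of *AKR1C1* from *AKR1C2* depended on the length used. The related genes *AKR1B15*, *AKR1C4*, *AKR1D1* and *AKR1C8P* were not detected at this depth and had 0 counts in all 6 libraries, which allows up to 3 counts in a library, or 0.119 to 0.135 CPM.

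**Figure D1:**
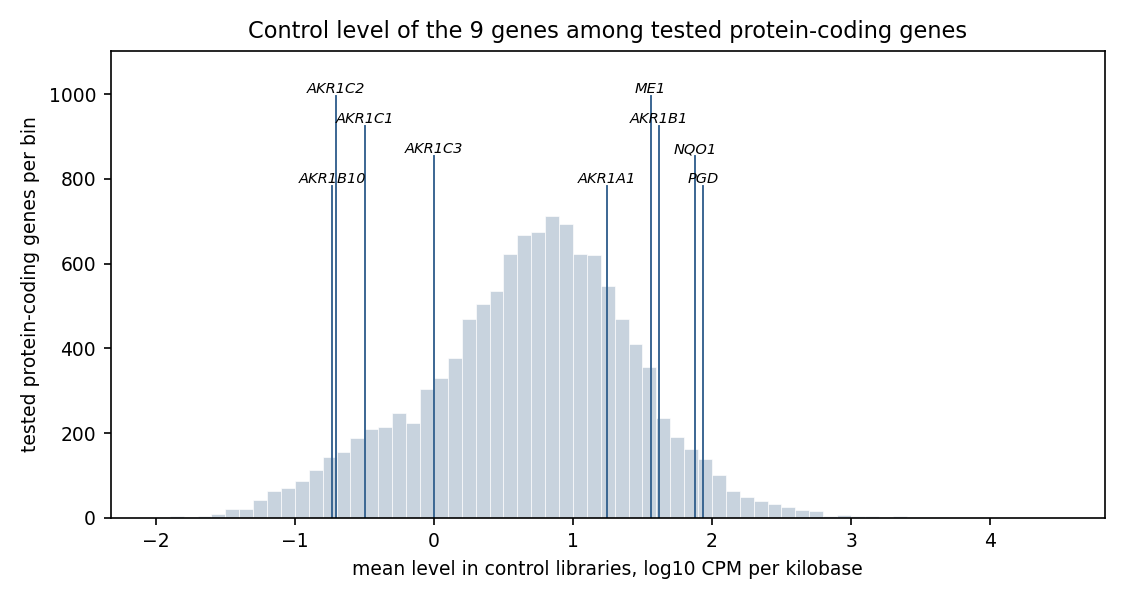
Histogram of the mean level of 11837 tested protein-coding genes in the 3 control libraries (x axis, log10 CPM per kilobase, y axis, genes per bin), with a vertical line at each of the 9 genes. *PGD*, *NQO1*, *AKR1B1*, *ME1* and *AKR1A1* lie to the right of the median, which is 5.52 on the linear scale, and *AKR1C3*, *AKR1C1*, *AKR1C2* and *AKR1B10* lie in the left tail.

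The comparison of ABS with control asked how transcript levels differ after a short exposure that stands for reflux. Of 13768 tested genes, 0.436% passed an edgeR adjusted p of 0.05, and 0 of the 9 genes did. At an unadjusted edgeR p under 0.05 the counts were 0 of 9 and 9.75% of all genes. By limma-voom *AKR1C2* had an unadjusted p of 0.049 (adjusted p 0.504). At an adjusted p of 0.05, 0 of 9 passed with DESeq2 or limma-voom, DESeq2 giving no adjusted p for *AKR1B10*. Groups did not overlap in 2 of the 9 genes, *AKR1B10* and *AKR1C2*, and in 14.5% of all tested genes. The median log2 fold change was 0.00 for the 9 genes and −0.0037 for all tested genes. All 9 genes passed the filter on low counts. *AKR1B10* did so through the ABS group, where all 3 libraries were past the minimum against 1 control library, so its position above control is partly built into its being tested. Together the 9 genes held 846, 849 and 836 CPM in ABS libraries and 863, 863 and 799 CPM in control libraries after TMM scaling (edgeR's correction for library composition), and these ranges overlapped.

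*NQO1* (ENSG00000181019, chromosome 16, 69706996 to 69726951) had 250, 246 and 243 CPM in ABS replicates 1 to 3, against 253, 254 and 231 CPM in control replicates 1 to 3. All ABS values lay within the control range. ABS over control came to 0.0030 ± 0.07 (SE) in log2 units by edgeR (adjusted p 0.996). The difference was −0.03 in replicates 1 and 2 and 0.07 in the replicate 3 pair.

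*PGD* (ENSG00000142657, chromosome 1, 10398592 to 10420144) had 272, 284 and 262 CPM in ABS replicates 1 to 3, against 265, 273 and 233 CPM in control replicates 1 to 3. The groups overlapped, with the lowest value in control replicate 3. The log2 fold change was 0.08 ± 0.08 (adjusted p 0.789), or 1.06-fold with a 95% interval of 0.945 to 1.19. *ME1* (ENSG00000065833, chromosome 6, 83210389 to 83431071) had 127, 130 and 120 CPM in ABS replicates and 126, 122 and 117 CPM in control replicates. Here too the groups overlapped, at a log2 fold change of 0.05 ± 0.07 (adjusted p 0.899), an interval of 0.929 to 1.15-fold. For both genes the replicate 3 libraries held the lowest value of their group.

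*AKR1B1* (ENSG00000085662, chromosome 7, 134442350 to 134459284) had 135, 133 and 152 CPM in ABS replicates 1 to 3, against 154, 149 and 155 CPM in control replicates 1 to 3. ABS replicates 1 and 2 lay below all control values and ABS replicate 3 within their range. The log2 fold change was −0.13 ± 0.07 (adjusted p 0.627), an interval of 0.818 to 1.02-fold. Within replicates 1 and 2 alone the edgeR log2 fold change was −0.18 ± 0.05 (adjusted p 0.025), in a fit that called 13.2% of all genes, and the replicate 3 pair differed by −0.03. *AKR1A1* (ENSG00000117448, chromosome 1, 45550543 to 45570049) had 52.6, 48.0 and 47.4 CPM in ABS replicates and 56.1, 56.8 and 51.0 CPM in control replicates. ABS replicate 1 lay above control replicate 3, so the groups overlapped. Its log2 fold change was −0.15 ± 0.08 (adjusted p 0.627), with an interval of 0.795 to 1.03-fold.

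**Figure D2:**
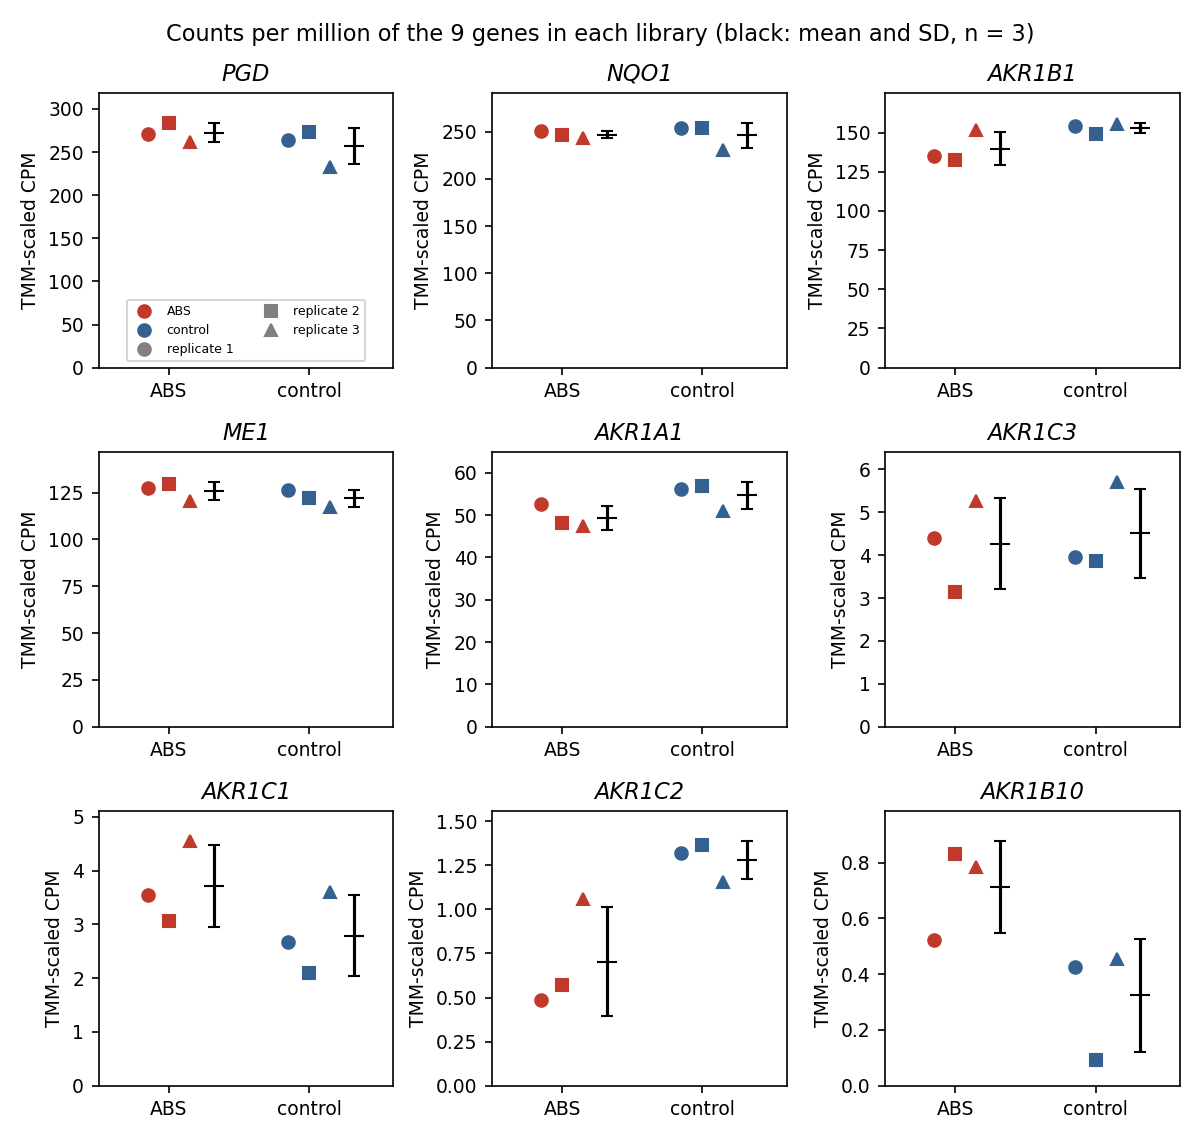
TMM-scaled CPM (y axis, from 0, 1 panel per gene) of the 9 genes in the ABS and control libraries, with a symbol for each replicate and the mean and SD in black (n = 3). ABS and control points overlap in 7 panels and are separate in those of *AKR1C2* and *AKR1B10*, whose values lie below 1.4 CPM.

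The 3 *AKR1C* genes encode reductases of ketosteroids, prostaglandins and aldehydes with different preferences, AKR1C1 for the 20-keto group of progesterone, AKR1C2 for dihydrotestosterone and AKR1C3 for prostaglandin D2 and androstenedione. *AKR1C1* (ENSG00000187134, chromosome 10, 4963253 to 4983283) had 88, 70 and 116 counts in ABS replicates 1 to 3, against 63, 46 and 87 counts in control replicates 1 to 3. These were 3.72 ± 0.761 CPM in ABS cells and 2.79 ± 0.759 CPM in control cells (SD, n = 3 each), with overlapping values and a log2 fold change of 0.41 ± 0.27 (adjusted p 0.682). *AKR1C3* (ENSG00000196139, chromosome 10, 5035354 to 5107686) had 109, 72 and 134 counts in ABS replicates and 93, 85 and 138 counts in control replicates. In CPM the range was 3.15 to 5.26 in ABS cells and 3.87 to 5.71 in control cells, so the groups overlapped in part, with the lowest value in ABS replicate 2 and the highest in control replicate 3. The log2 fold change was −0.08 ± 0.25 (adjusted p 0.958).

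*AKR1C2* (ENSG00000151632, chromosome 10, 4987400 to 5018031) had 12, 13 and 27 counts in ABS replicates 1 to 3, against 31, 30 and 28 counts in control replicates 1 to 3. All ABS values were lower than all control values on the CPM scale, where ABS replicate 3, at 1.06 CPM, came close to control replicate 3, at 1.16 CPM. The log2 fold change was −0.85 ± 0.43 (adjusted p 0.566), an interval of 0.288 to 1.06-fold. The difference was −1.23 in replicates 1 and 2 but −0.12 in the replicate 3 pair.

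*AKR1C1* and *AKR1C2* were compared as a ratio within each library, a comparison chosen after their values were seen. The ratio of *AKR1C1* to *AKR1C2* counts was 7.33, 5.38 and 4.30 in ABS replicates 1 to 3, against 2.03, 1.53 and 3.11 in control replicates 1 to 3. The ABS ratios were all above the control ratios, and the geometric mean ratio was 2.60-fold higher in ABS libraries. No test is given, since the pair was chosen for this difference. Of the counts of the 3 genes, *AKR1C2* took 5.74% to 9.75% in ABS libraries and 11.1% to 18.6% in control libraries, *AKR1C1* took 41.9% to 45.2% in ABS libraries and 28.6% to 34.4% in control libraries, and the *AKR1C3* shares overlapped. Summed to 1 feature before the fit, which removes the split between the 3 genes, they held 8.69 ± 2.06 CPM in ABS cells and 8.58 ± 1.66 CPM in control cells, a log2 fold change of 0.02 ± 0.20 (adjusted p 0.987). The sum does not restore reads that may have been dropped for matching more than 1 gene. Whether shared reads contribute to the difference in ratio was not tested.

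**Figure D3:**
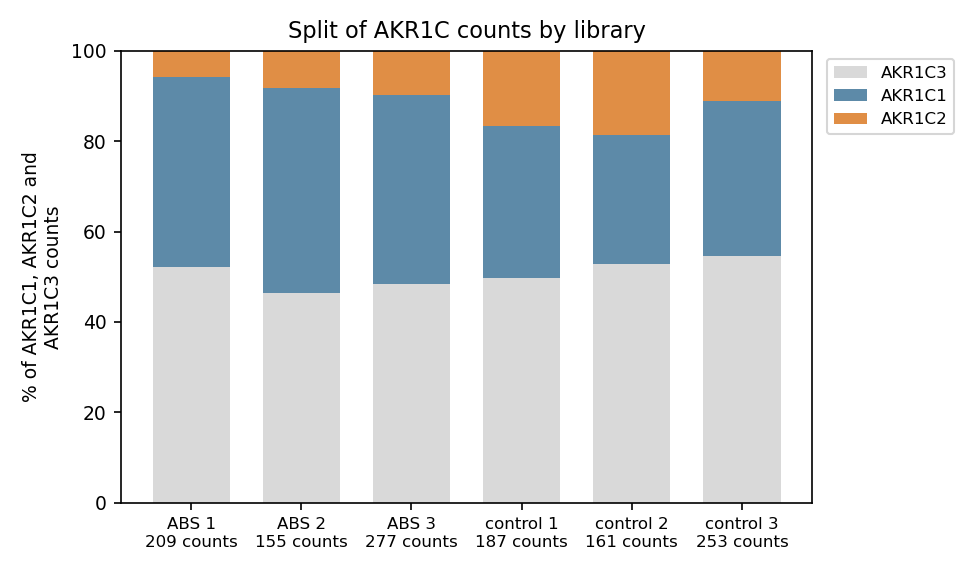
Share of the summed counts of *AKR1C1*, *AKR1C2* and *AKR1C3* (y axis, %) taken by each gene in each library, with the summed count under each bar. The *AKR1C2* part is 5.74% to 9.75% of the ABS bars and 11.1% to 18.6% of the control bars.

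*AKR1B10* (ENSG00000198074, chromosome 7, 134527592 to 134541408), which encodes a reductase of retinal and other aldehydes that is found in the healthy intestine, had the fewest counts of the 9 genes. There were 13, 19 and 20 counts in ABS replicates 1 to 3, against 10, 2 and 11 counts in control replicates 1 to 3. The ABS values, 0.524, 0.831 and 0.785 CPM, were all above the control values of 0.425, 0.091 and 0.455 CPM, with the widest gap at control replicate 2. The log2 fold change was 1.11 ± 0.58 (adjusted p 0.585), or 2.16-fold with an interval of 0.897 to 5.20. It was the same when *AKR1B15*, at 0 counts, was added.

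**Figure D4:**
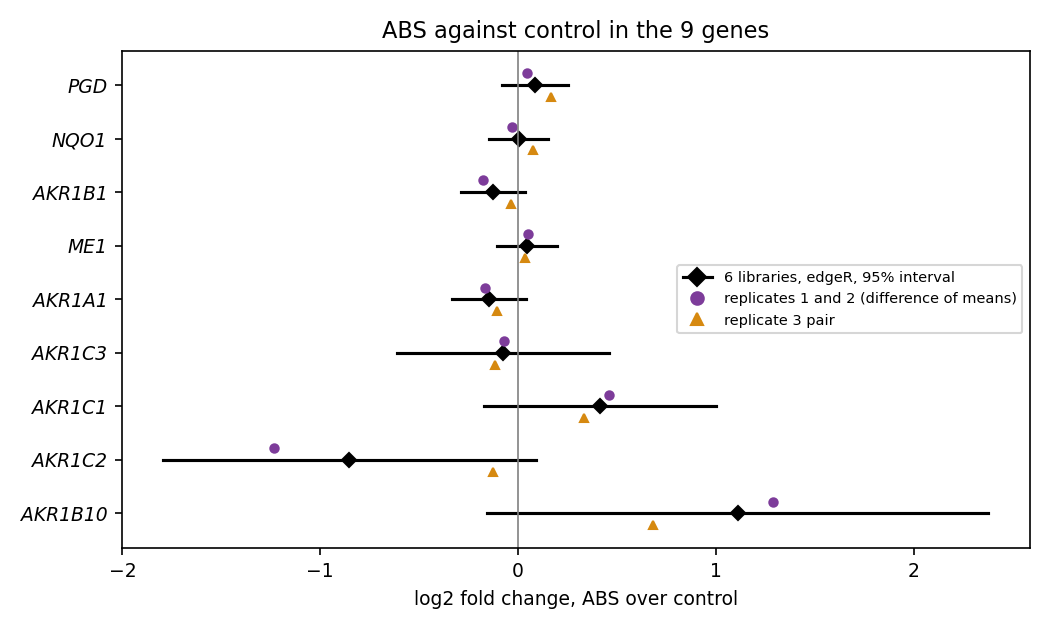
Log2 fold change of ABS over control (x axis) for each of the 9 genes over all 6 libraries with its 95% interval (diamonds and lines), for replicates 1 and 2 (circles) and for the replicate 3 pair (triangles). All 9 intervals include 0, and those of *AKR1C2* and *AKR1B10* are the widest.

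The 5 abundant genes varied little between libraries of a group, with a coefficient of variation of 1.45% to 7.45% in ABS cells and 2.20% to 8.21% in control cells. For the 4 sparse genes it was 20.4% to 44.2% in ABS cells and 8.48% to 62.4% in control cells. *AKR1C1* and *AKR1C3* were highest in replicate 3 of each group. On the log2 scale *AKR1C1* was higher in replicate 3 than in replicates 1 and 2 by 0.45 in ABS cells and 0.58 in control cells, and *AKR1C3* by 0.49 in ABS cells and 0.53 in control cells. *NQO1*, *PGD*, *ME1* and *AKR1A1* were lower in replicate 3 of both groups, by 0.03 to 0.21.

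Over the 6 libraries the protein-coding genes most like the mean centred profile of the 9 genes, among those with at least 5 CPM, were *PDE4DIP* (Pearson r = 0.992), *ARHGAP32* (0.992), *ALDH3A1* (0.989), *HLTF* (0.983) and *POLR2I* (0.975). This is a description of 6 libraries that share the replicate 3 separation. The 5 genes were picked for the highest r among many genes, so values this high are partly a result of the picking. The 9 genes had equal weight in the mean profile, so it follows the sparse genes, which varied most, more than the abundant ones. Its lowest value, −0.169, was in control replicate 2, where *AKR1B10* had 2 counts. *ALDH3A1*, an aldehyde dehydrogenase, had 24.5, 25.2 and 29.4 CPM in ABS replicates and 25.9, 22.8 and 26.9 CPM in control replicates. Between the 9 genes, *PGD* was most like *ME1* (r = 0.823), *NQO1* most like *PGD* (0.807), *AKR1B1* most like *AKR1C2* (0.923) and *AKR1C1* most like *AKR1B10* (0.794).

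Genes with related functions are given by list. Of 11 other aldo-keto reductase genes 6 were tested, and 0 passed in either direction, at a median log2 fold change of −0.02. By edgeR at an unadjusted p under 0.05, 1 was higher, *AKR7L*, with 12, 11 and 21 counts in ABS replicates and 4, 4 and 8 counts in control replicates (log2 fold change 1.37 ± 0.57, adjusted p 0.447). It passed the filter on low counts through the ABS group, with every control library under the minimum of 0.423 CPM. Its position above control is therefore partly built into its being tested. *KCNAB1* and *KCNAB2*, which encode potassium channel subunits of the same protein superfamily, differed by −0.44 (adjusted p 0.770) and −0.21 (0.869) in log2 units.

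Of 24 other carbonyl and quinone reductases and aldehyde dehydrogenases 22 were tested and 0 passed, with 1 higher and 1 lower at an unadjusted p under 0.05 and a median of −0.0080. *ALDH1A3*, which makes retinoic acid from retinal, had 1071, 982 and 1015 CPM in ABS replicates 1 to 3, against 831, 828 and 854 CPM in control replicates 1 to 3. The groups were separate, and the log2 difference was 0.29 ± 0.07 (adjusted p 0.093). *ALDH1A3* passed with DESeq2, without a filter, and in every fit that left out or modelled a replicate 3 library. The mitochondrial aldehyde dehydrogenase gene *ALDH1B1* differed by −0.22 on the log2 scale (adjusted p 0.450), and the retinol dehydrogenase gene *DHRS9*, at 680 ± 67.8 CPM in ABS cells and 588 ± 75.9 CPM in control cells, by 0.21 (0.546). Both passed in replicates 1 and 2 alone, and *DHRS9* also with a term for the replicate 3 libraries.

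Of 20 other genes of NADPH supply 19 were tested, 0 passed, and 0 had an unadjusted p under 0.05. Their log2 fold changes lay between −0.18 and 0.28 with a median of −0.03. The smallest adjusted p were those of *PGLS* (−0.18, adjusted p 0.657), which acts upstream of PGD in the pentose phosphate pathway, the mitochondrial NAD kinase gene *NADK2* (−0.17, 0.715) and *H6PD* (−0.18, 0.727). DESeq2 and limma-voom called 0 of these 19 genes. *H6PD* passed in replicates 1 and 2 alone, and its difference was −0.37 there and 0.20 in the replicate 3 pair.

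Genes of NRF2 control and other NRF2 targets are set beside these. Of 11 genes of NRF2 and its regulators 0 passed, with 4 higher and 0 lower at an unadjusted edgeR p under 0.05 and a median log2 fold change of 0.16. Among all 13768 tested genes, 773 were higher and 570 lower at that unadjusted p. *NFE2L2*, which encodes NRF2, had 158, 169 and 164 CPM in ABS replicates 1 to 3, against 114, 100 and 134 CPM in control replicates 1 to 3. The ABS values were all above the control values, by 0.49 ± 0.10 in log2 units (adjusted p 0.053). The difference was 0.61 in replicates 1 and 2 and 0.28 in the replicate 3 pair. *NFE2L2* passed with DESeq2 and limma-voom, without a filter, and in every fit that left out or modelled a replicate 3 library. It did not pass without either of the other replicates of a group. For *KEAP1* the log2 difference was 0.04 (adjusted p 0.931), for *MAFG*, a DNA-binding partner of NRF2, 0.32 (0.153) and for *SQSTM1*, which binds KEAP1, 0.35 (0.227). *MAFG* and *SQSTM1* passed without a filter, with the term for the replicate 3 libraries, in replicates 1 and 2 alone and without ABS replicate 3, and with neither DESeq2 nor limma-voom.

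Of 21 other NRF2 targets, all tested, 4 rose and 0 fell, 10 were higher and 0 lower at an unadjusted edgeR p under 0.05, and the median was 0.26. Among all 13768 tested genes 51 rose and 9 fell, and 773 were higher and 570 lower at that unadjusted p. The targets that rose were *GCLM*, for glutathione synthesis, *OSGIN1*, a growth inhibitor, *TXNRD1*, a thioredoxin reductase, and *TRIM16L*. *TRIM16L* had 47.8, 45.9 and 51.3 CPM in ABS replicates and 27.1, 30.4 and 36.5 CPM in control replicates, which is 0.62 ± 0.11 in log2 units (adjusted p 0.034). It is a paralog of *TRIM16*, and how much sequence their transcripts share was not measured. *GCLM* had 158, 153 and 131 CPM in ABS replicates and 92.1, 92.0 and 99.4 CPM in control replicates (log2 fold change 0.64 ± 0.08, adjusted p 0.0050). *OSGIN1* differed by 1.25 ± 0.17 (adjusted p 0.0056) and *TXNRD1* by 0.53 ± 0.10 (0.043), and in all 4 genes every ABS value was above every control value. In replicates 1 and 2 the log2 differences were 0.76 for *GCLM*, 1.56 for *OSGIN1*, 0.68 for *TXNRD1* and 0.70 for *TRIM16L*. In the replicate 3 pair they were 0.40, 0.72, 0.20 and 0.49, smaller in all 4 genes. Each of these calls ended when some single libraries were left out. None of the 4 held without ABS replicate 1 or without control replicate 2, only *OSGIN1* held without control replicate 1, and *GCLM* and *OSGIN1* held without ABS replicate 2. *TRIM16L* also did not pass when scaled by library size alone. Several of these genes were known from earlier results on these libraries to be higher in ABS cells, so their direction is no independent evidence, and the difference between the 9 genes and the other targets was not tested.

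**Figure D5:**
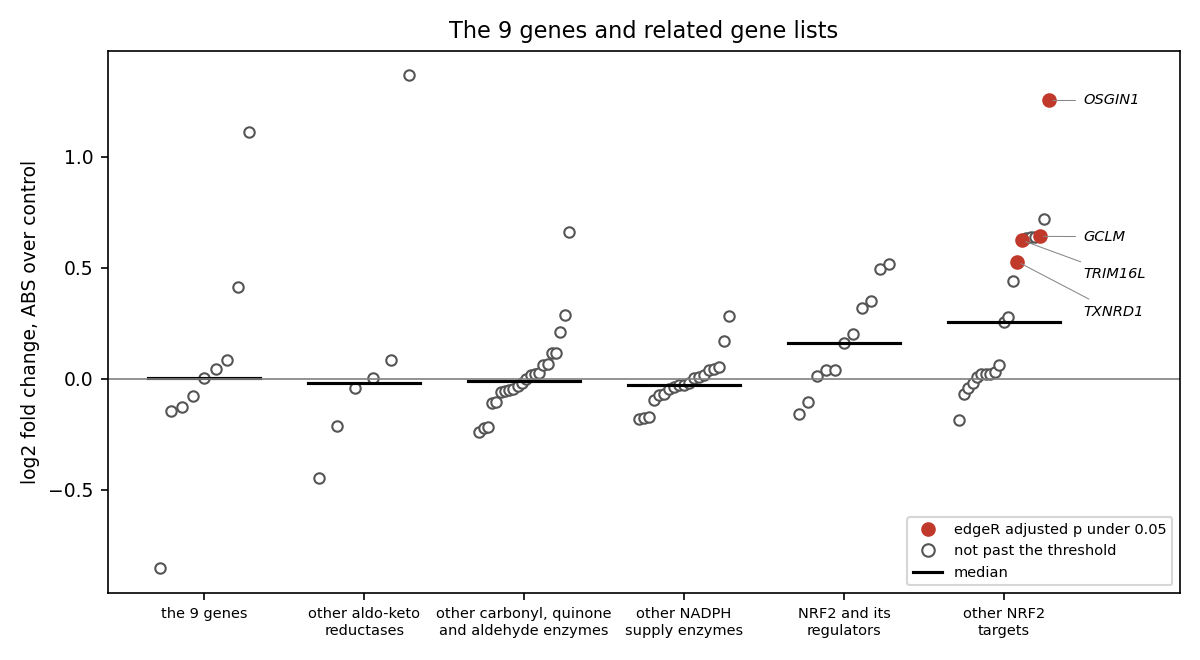
Log2 fold change of ABS over control (y axis) for each tested gene of the 9 and of 5 related lists, with filled points past an edgeR adjusted p of 0.05 and a black line at the median. The 9 genes have a median of 0.00 and no filled point, while 4 of the 21 other NRF2 targets are filled, around a median of 0.26.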

How the data were processed

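The authors deposited raw counts per gene for 6 libraries. The submitters' processing notes name HISAT2 2.0.5, featureCounts 1.5.0-p3 and GRCh38. The annotation, strand setting and treatment of multiply mapped reads are not given in the sources used here. All 58735 gene identifiers had the same coordinates and lengths as the exon unions of GENCODE release 29. The deposited gene lengths, in the category other, were used to scale levels.

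Counts were tested with edgeR 4.0.16 in R 4.3.3 (quasi-likelihood F-test, TMM, filterByExpr with a minimum count of 10 and total of 15, group as the only term), with Benjamini-Hochberg adjustment over 13768 genes and a threshold of 0.05. The procedure was tested on simulated data that gave all genes the same spread, changed only well-counted genes and held no replicate 3 separation. That trial does not cover the sparse genes. The SE is the size of the log2 fold change divided by the square root of F. Differences within replicates used log2 CPM with 2 added to each count. Limits from 3 counts cover counting error only. DESeq2 1.42.0, limma-voom 3.58.1 and the other alternatives are described at the end. Sequences were aligned with Biopython 1.88.

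The 9 genes and the 5 lists were chosen with earlier results of these data known. All 9 genes are named, from each list the genes past the threshold or otherwise the 3 with the smallest adjusted p, and *NFE2L2* and *KEAP1* always. No result was flagged, since groups of 3 are too small for an outlier test.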

Additional observations from a re-analysis of the deposited data

How the results depend on the processing

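Over the 14 alternatives 0 of the 9 genes passed, except *AKR1B1* within replicates 1 and 2 alone, where 1 passed. *AKR1A1*, *AKR1B1*, *AKR1B10*, *AKR1C1*, *AKR1C2*, *PGD* and *ME1* kept their sign in all 14. *NQO1* changed sign with library size alone (−0.0074), within replicates 1 and 2 (−0.031) and with single libraries left out (−0.042 to 0.027). *AKR1C3* ranged from −0.25 to 0.13 with single libraries left out. The summed *AKR1C* counts gave −0.0052 within replicates 1 and 2 and −0.17 to 0.19 with single libraries left out. The count of all genes past the threshold, 60, was 409 without a filter on low counts, 264 with DESeq2, 35 when scaled by library size alone, 465 with a term for the replicate 3 libraries and 1813 within replicates 1 and 2. It was 13, 18 and 273 without ABS replicates 1, 2 and 3, and 17, 12 and 438 without control replicates 1, 2 and 3. Genes of the 5 lists past the threshold, 4 in all, numbered 13 without a filter, 9 with DESeq2, 13 with the replicate 3 term, 22 within replicates 1 and 2 and 0 to 11 with single libraries left out. The cause was not tested. Libraries with the same number were not shown to be paired: their deviations from the group means correlated at 0.043, 0.031 and 0.164. ABS replicates 1 and 3 correlated best with the control library of their own number, while ABS replicate 2 correlated best with control replicate 1 (0.0935). With the number as a replicate block 350 genes, 0 of the 9 and 11 of the lists passed. *AKR1B10* and *AKR1C2* had 2 to 31 counts a library, and the parts of counting error and of spread between libraries in their intervals were not tested.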
